A study of Homo sapiens with 36 samples.

Results

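The transcripts of 10 genes of the nuclear lamina and of the high mobility group (HMG) chromatin proteins were followed in cancer cells treated with 6-thio-dG, a nucleoside analogue that telomerase builds into telomeres. They are the lamins LMNA, LMNB1 and LMNB2, the inner nuclear membrane proteins LBR, TMPO and EMD, the HMG-box proteins HMGB1, HMGB2 and HMGB3, and the AT-hook protein HMGA1. The genes were taken by symbol, with no cutoff on a measured value. The set was chosen with earlier results of these data known. Of its genes, 10 of 10 had a row in the authors' deposited table of 11828 genes.

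The study sequenced poly-T selected mRNA of 36 libraries, of which the 16 of one experiment bear on these genes. A375, a melanoma line with mutant BRAF, received 6-thio-dG with PLX4720, 6-thio-dG alone, PLX4720 alone, which inhibits mutant BRAF, or the solvent DMSO as control. HCC827, a lung adenocarcinoma line with mutant EGFR, received 6-thio-dG with osimertinib, 6-thio-dG alone, osimertinib alone, which inhibits mutant EGFR, or DMSO as control. Each of these 8 groups had 2 libraries, each treatment lasted 3 days, and no label says whether the 2 libraries came from separate cultures. The other 20 libraries, a time course of targeted drugs with 1 library a point, were not analysed here.

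The authors' deposited table holds 4 comparisons and no value per library, so levels, replicate spread and depth are unknown here. Its columns give the log2 fold change of 6-thio-dG over control and of the combination over the targeted drug, in each line, each with its p-value before and after adjustment. The header calls the second arm "RNA" in the 6-thio-dG comparisons and "TKI1" in the combination comparisons. These were read as the control and as the targeted drug alone, which the header does not state. A gene is said to have risen or fallen where the authors' adjusted p was under 0.05. The standard error (SE) of each fold change was implied from the fold change and its p-value, and ran from 0.11 to 0.21 on the log2 scale over the 10 genes and 4 comparisons. Fewer cells with a transcript and less of it per cell cannot be told apart in such bulk RNA. The levels of markers that define the lines cannot be read from fold changes; 2 of 6 melanocyte markers, 6 of 6 lung epithelial markers, 1 of 6 fibroblast markers and 0 of 5 immune markers had a row. In A375 under 6-thio-dG alone, 3 of the 6 lung epithelial markers fell and 0 rose (median log2 fold change -0.82), 1 of the 2 melanocyte markers rose (median 0.05) and the fibroblast marker fell (-3.15), by the authors' deposited table. Under 6-thio-dG in HCC827, 2 lung epithelial markers rose and 2 fell (median 0.36), and no melanocyte or fibroblast marker passed. Over PLX4720 in A375, 3 lung epithelial markers rose (median 1.25), 1 melanocyte marker fell (median -1.15) and the fibroblast marker fell (-3.61). Over osimertinib in HCC827, 3 lung epithelial markers rose and 1 fell (median 0.26), 1 melanocyte marker fell (median -0.25) and the fibroblast marker did not pass. The part of these shifts in the results for the 10 genes was not tested.

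The nuclear lamina is a meshwork of intermediate filaments under the inner nuclear membrane. LMNA encodes the A-type lamins A and C, and LMNB1 and LMNB2 encode the B-type lamins B1 and B2. LBR binds B-type lamins and heterochromatin and is also a sterol reductase of cholesterol synthesis, while TMPO (the lamina-associated polypeptides 2, or thymopoietins) and EMD (emerin) carry a LEM domain that binds the chromatin protein BANF1. The HMGB proteins bend DNA without reading a specific sequence, HMGB1 also acts as an alarm signal when it leaves the cell, and HMGA1 binds AT-rich DNA in the minor groove. Loss of lamin B1 and of nuclear HMGB2 and HMGB1 is widely used as a mark of senescent cells, and LMNB1, TMPO, HMGB2 and HMGB3 are among the transcripts that are high in dividing cells.

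On GRCh38, in GENCODE 29, the A-type lamin gene LMNA lies at chr1:156082573-156140089, LMNB1 at chr5:126776623-126837020 and LMNB2 at chr19:2427638-2456996, where it overlaps TIMM13. LBR lies at chr1:225401502-225428925, TMPO at chr12:98515512-98550379 with the antisense gene TMPO-AS1, and EMD at chrX:154379197-154381523. HMGB1 spans chr13:30456704-30617597, HMGB2 chr4:173331695-173335125, HMGB3 chrX:150980509-150990775 and HMGA1 chr6:34236873-34246231. The fold changes are per gene, so no exon or isoform of these genes, such as lamin A against lamin C, was told apart.

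Upstream sequence was searched for elements known from promoters of cell-cycle genes, because several of these genes are cell-cycle linked and the fold changes below bear on their transcripts. RefSeq windows on GRCh38.p14, covering 250 bases before a transcript start, were on hand for 9 of the 10 genes, without HMGB2. The pentamer CCAAT, searched on both strands, stood in a window of 7 genes (LMNA, LMNB1, TMPO, EMD, HMGB1, HMGB3 and HMGA1), against 32.0% of 35116 promoters. Within the nearest 100 bases it stood in 3 genes (TMPO, HMGB1 and HMGB3), against 18.1% of promoters. Genes with several listed starts had more than 1 window, so their chance to hold a match was larger than that of a single promoter. The 2 genes with 3 copies in 1 window were HMGB1 and HMGB3, and 2.93% of promoters held 3 or more. TTTGAA, a form of the cell-cycle homology region, stood in 3 genes (LMNB2, HMGB1 and HMGB3), against 13.3% of promoters. TTTCCCGC, a form of the E2F site, stood in LMNA alone, against 1.39% of promoters, and TTCGAA, TTTCGCGC, TTTGCCGC and TTTGGCGC were in no window of the 9 genes.

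The stretches from 150 to 51 bases before a start are shown for 2 HMG genes with several CCAAT copies and for LMNA, the lamin gene with the smallest fold change under 6-thio-dG in A375. Each is read 5′ to 3′ on the gene's strand, from RefSeq windows on GRCh38.p14, with CCAAT in capitals; a match is a description of the letters and no evidence of binding.
HMGB3, chrX:150983185-150983284, plus strand: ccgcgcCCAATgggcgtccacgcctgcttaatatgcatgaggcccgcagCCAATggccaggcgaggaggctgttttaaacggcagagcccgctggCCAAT
HMGB1, chr13:30465987-30466086, minus strand: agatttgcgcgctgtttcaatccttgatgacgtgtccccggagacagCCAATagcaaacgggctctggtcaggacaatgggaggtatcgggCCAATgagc
LMNA, chr1:156082423-156082522, plus strand: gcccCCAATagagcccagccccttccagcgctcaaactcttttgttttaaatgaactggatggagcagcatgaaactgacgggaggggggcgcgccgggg
The HMGB3 stretch held 3 copies of CCAAT and the HMGB1 stretch 2, with the third HMGB1 copy 24 to 28 bases before the start. The LMNA stretch held 1 copy. Of the 2 windows of LMNB1, the one before the start near which 2 of its 3 GENCODE 29 coding transcripts begin (within 50 bases) had 1 copy on the other strand, 134 to 138 bases upstream, and the one near which 0 of 3 begin had none.

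In A375, 6-thio-dG alone was followed by lower transcript of 10 of the 10 genes, where 33.7% of all genes in the table fell, 31.3% rose and 65.0% passed the threshold in either direction. LMNB1 fell furthest, to 6.27% of control. The 10 log2 fold changes in the authors' deposited table ran from -4.00 to -0.47 with a median of -2.06, beside a median of 0.01 over all genes. The plot of the members' fold changes shows each gene with its interval.

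**Figure D1:**
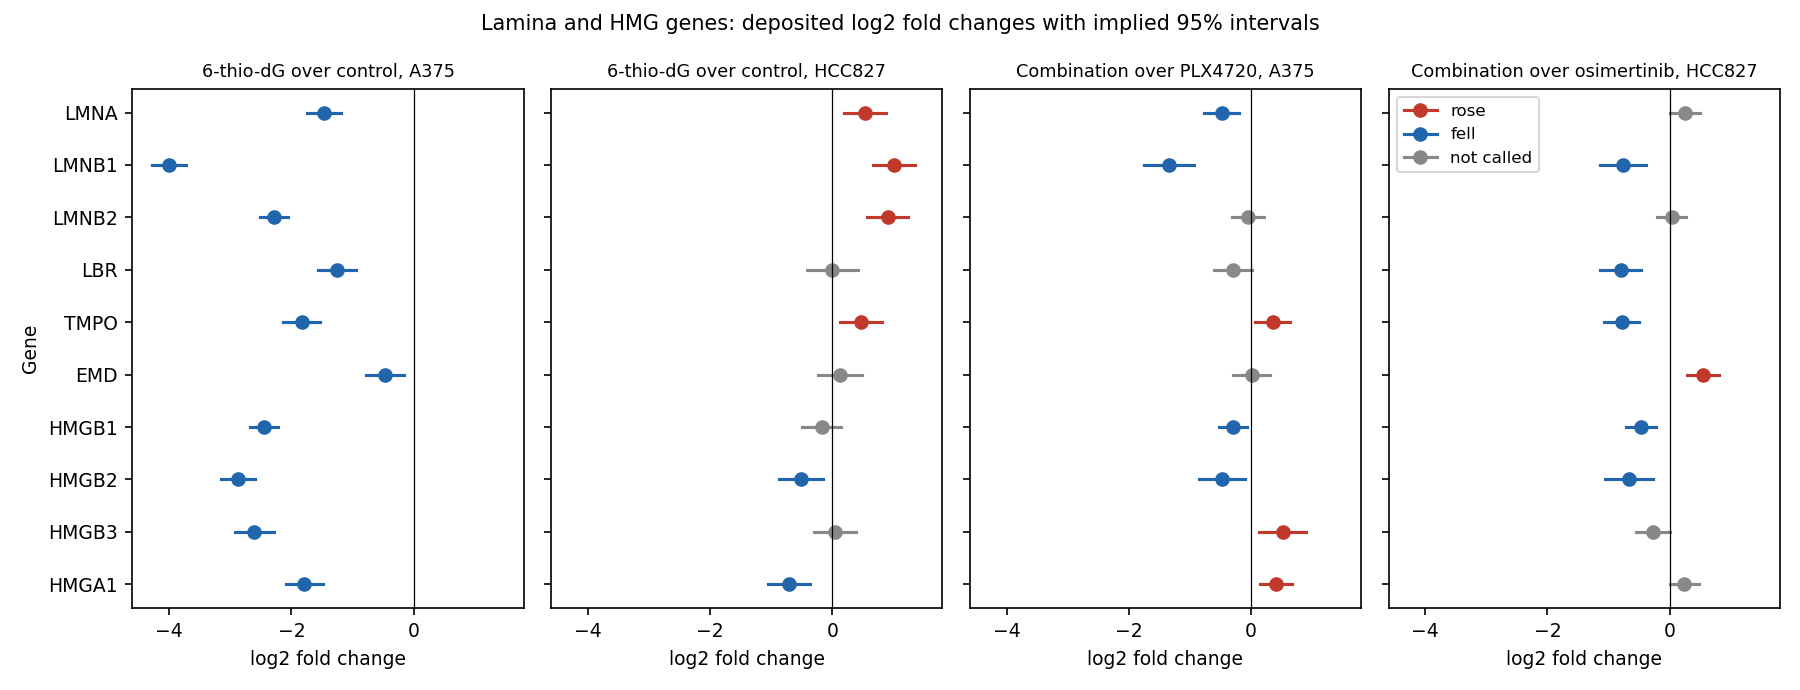
Deposited log2 fold change (x axis) of each of the 10 genes (y axis) in the 4 comparisons, one panel each; points are the authors' values and lines the 95% intervals from the implied SE, with red for rose, blue for fell and grey for adjusted p of 0.05 or more. Under 6-thio-dG in A375 the 10 points lie between -4.00 and -0.47, while under 6-thio-dG in HCC827 they lie between -0.71 and 1.01.

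Among the lamins, LMNB1 had a log2 fold change of -4.00 under 6-thio-dG in A375 in the authors' deposited table (implied SE 0.14, adjusted p = 2.4e-171), and ranked 68th from the lowest of the 11828 genes. LMNB2, the second B-type lamin, had a log2 fold change of -2.29 in the authors' deposited table (SE 0.11, adjusted p = 2.4e-86), or 20.5% of control. LMNA had -1.46 (SE 0.14, adjusted p = 1.4e-23 in the authors' deposited table), or 36.3% of control. The 3 lamins therefore ordered as LMNB1, LMNB2 and LMNA from largest to smallest fall, and their 95% intervals of -4.27 to -3.72, -2.51 to -2.06 and -1.74 to -1.18 did not overlap.

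The inner nuclear membrane genes fell by unlike amounts in A375 under 6-thio-dG. TMPO fell by 1.83 on the log2 scale in the authors' deposited table (SE 0.15, adjusted p = 6.0e-32), to 28.1% of control. LBR, at -1.25 in the authors' deposited table (SE 0.16, adjusted p = 9.4e-15), stood at 41.9% of control. EMD had the smallest change of the 10 genes, -0.47 in the authors' deposited table (SE 0.16, adjusted p = 0.0058), which leaves 72.3% of control. EMD lay at the 31.6th percentile of all genes, inside their interquartile range of -0.66 to 0.70, and its call was lost when the trend with GC content was removed (log2 fold change -0.04).

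The HMG genes fell together in A375 under 6-thio-dG. HMGB2 had a log2 fold change of -2.87 in the authors' deposited table (SE 0.14, adjusted p = 2.8e-93), which leaves 13.6% of control. HMGB3 had -2.60 (SE 0.16, adjusted p = 5.0e-55) and HMGB1 -2.45 (SE 0.12, adjusted p = 3.1e-95) in the authors' deposited table, or 16.5% and 18.3% of control. The intervals of these 3 HMG-box genes overlapped, from -3.15 to -2.60 for HMGB2, from -2.92 to -2.28 for HMGB3 and from -2.68 to -2.22 for HMGB1. HMGA1 fell by 1.79 in the authors' deposited table (SE 0.15, adjusted p = 1.5e-30), to 29.0% of control.

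Some of the reads behind these values could belong to near-identical sequence. Over 100-base windows of the longest GENCODE 29 transcript, 7.63% of HMGB1 windows also occur in the pseudogenes HMGB1P5, HMGB1P6 or HMGB1P1, and 8.40% of TMPO windows in the antisense gene TMPO-AS1. HMGB3 shares 0.116% of its windows with HMGB3P6, and the other 7 genes share none. Only windows that match over all 100 bases were counted, so pseudogene copies with mismatches were not seen. The annotation names 48 pseudogenes of HMGB1, 29 of HMGB3 and 8 of HMGA1. Whether the authors' counting used strand or dropped reads with several matches is not given in the sources used here, so the values of HMGB1 and TMPO are the less certain ones.

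In HCC827, 6-thio-dG alone divided the genes. The B-type lamins rose, with LMNB1 at about 2-fold, LMNA and TMPO rose less, HMGA1 and HMGB2 fell, and LBR, EMD, HMGB1 and HMGB3 did not pass the threshold. This makes 4 genes that rose and 2 that fell, where 14.8% of all genes rose, 14.4% fell and 29.2% passed in either direction. The median of the 10 log2 fold changes in the authors' deposited table was 0.09, beside 0.01 over all genes.

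LMNB1 had a log2 fold change of 1.01 under 6-thio-dG in HCC827 in the authors' deposited table (SE 0.18, adjusted p = 3.4e-07), or 2.01 times control, at the 95.4th percentile of all genes. LMNB2 had 0.91 in the authors' deposited table (SE 0.17, adjusted p = 3.1e-06), or 1.87 times control. LMNA had 0.53 in the authors' deposited table (SE 0.18, adjusted p = 0.015), or 1.45 times control, and its call was lost with the GC trend removed (0.36). The order of the lamins by size of change, LMNB1, LMNB2 and LMNA, was that of A375 with the opposite sign, but in HCC827 the 3 intervals overlapped, from 0.66 to 1.35, from 0.57 to 1.24 and from 0.18 to 0.88.

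Of the inner nuclear membrane genes, TMPO rose by 0.47 in HCC827 under 6-thio-dG in the authors' deposited table (SE 0.18, adjusted p = 0.035). LBR was at 0.00098 (95% interval -0.42 to 0.42) and EMD at 0.12 (-0.24 to 0.48) in the authors' deposited table, and neither passed the threshold.

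Of the HMG genes in HCC827 under 6-thio-dG, HMGA1 had the largest fall, -0.71 in the authors' deposited table (SE 0.18, adjusted p = 0.00063), to 61.2% of control. HMGB2 had -0.51 in the authors' deposited table (SE 0.18, adjusted p = 0.022), or 70.1% of control. HMGB1 at -0.17 (95% interval -0.49 to 0.15) and HMGB3 at 0.05 (-0.29 to 0.40) in the authors' deposited table did not pass the threshold. The 4 HMG genes, from -0.71 to 0.05 on the log2 scale, thus lay below the 3 lamins, from 0.53 to 1.01, in this comparison.

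**Figure D2:**
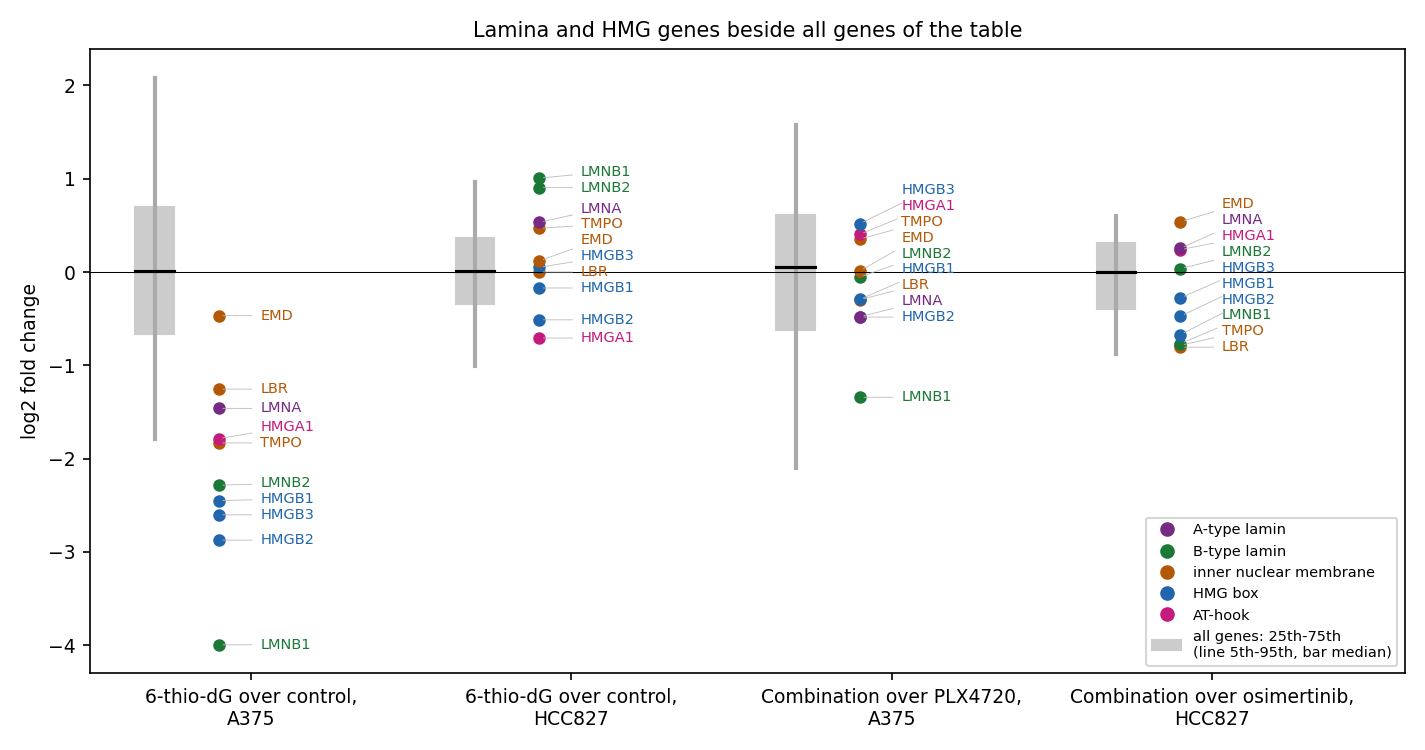
Deposited log2 fold change (y axis) of the 10 genes, coloured by role, beside all 11828 genes of the table (grey box 25th to 75th percentile, line 5th to 95th, black bar median) in each comparison. In A375 under 6-thio-dG, 9 of the 10 genes lie below the 25th percentile of -0.66, and EMD at -0.47 lies inside the box.

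The difference between the lines was tested directly. The effect of 6-thio-dG in A375 minus that in HCC827 was below 0 and past an adjusted p of 0.05 for 10 of the 10 genes, where 28.9% of the 11821 genes tested were below 0, 26.2% above 0 and 55.1% passed in either direction. These differences, from a two-sided z test on the implied errors with Benjamini-Hochberg adjustment over the genes tested, had a median of -2.29 on the log2 scale, beside -0.01 over all genes. LMNB1 differed most, with -4.00 in A375 and 1.01 in HCC827 in the authors' deposited table, a difference of -5.00 (95% interval -5.45 to -4.56). LMNB2 differed by -3.19 (-3.60 to -2.79) and HMGB3 by -2.65 (-3.12 to -2.18). The smallest differences were those of HMGA1, -1.08 (-1.53 to -0.62), and EMD, -0.59 (-1.06 to -0.12). With the GC trend removed, HMGA1 (-0.45) and EMD (-0.0043) lost their calls.

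**Figure D3:**
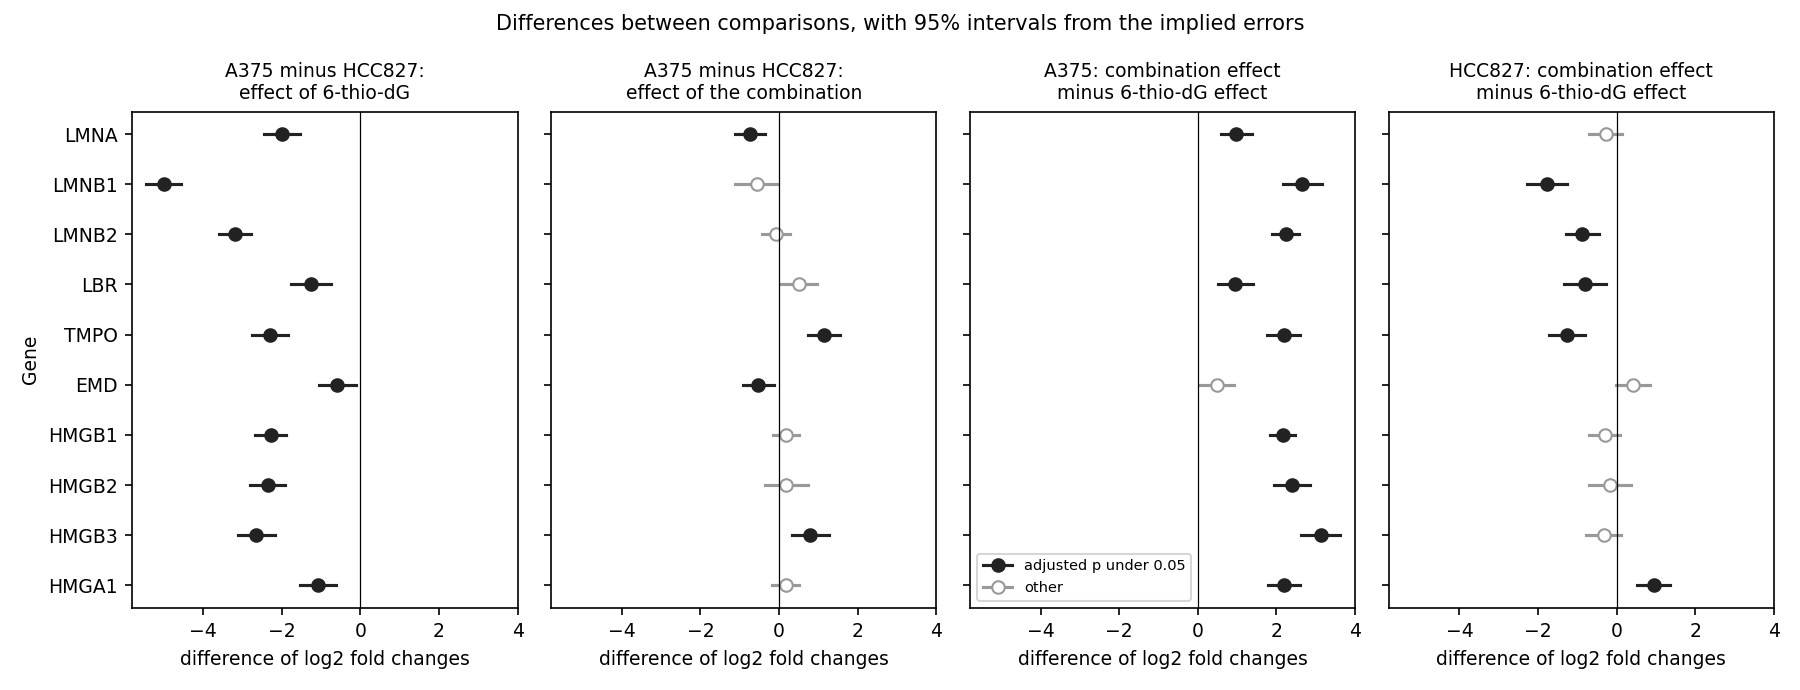
Difference of 2 log2 fold changes (x axis) for each of the 10 genes (y axis), with 95% intervals from the implied errors; filled points passed an adjusted p of 0.05 over all genes tested. In the first panel, A375 minus HCC827 under 6-thio-dG, the 10 filled points lie between -5.00 and -0.59, and in the third, combination minus 6-thio-dG in A375, the 9 filled points lie between 0.96 and 3.12.

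Adding 6-thio-dG to PLX4720 in A375 gave smaller and mixed changes against PLX4720 alone. LMNB1, LMNA, HMGB2 and HMGB1 fell, HMGB3, HMGA1 and TMPO rose, and LMNB2, LBR and EMD did not pass the threshold. Over all genes, 29.3% fell, 31.2% rose and 60.5% passed in either direction, so 7 of 10 genes is close to the table as a whole. The 10 log2 fold changes had a median of -0.17 in the authors' deposited table, beside 0.06 over all genes.

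LMNB1 was again the gene with the largest change, a log2 fold change of -1.34 over PLX4720 in the authors' deposited table (SE 0.21, adjusted p = 6.1e-10), or 39.4% of the level under PLX4720 alone. LMNA fell by 0.48 in the authors' deposited table (SE 0.15, adjusted p = 0.0029), a call lost with the GC trend removed (-0.07). LMNB2 was at -0.05 in the authors' deposited table (95% interval -0.32 to 0.21), and passed as higher, at 0.35, with the GC trend removed.

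TMPO rose by 0.35 over PLX4720 in A375 in the authors' deposited table (SE 0.15, adjusted p = 0.032), and lost this call with all genes centred on their median (0.30) and with the GC trend removed (0.15). LBR was at -0.30 in the authors' deposited table (SE 0.16, adjusted p = 0.11), and passed as lower under the same settings (-0.35 and -0.58). EMD was at 0.01 in the authors' deposited table (95% interval -0.29 to 0.31). It passed as higher with the GC trend removed (0.36).

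The HMG-box genes divided over PLX4720 in A375. HMGB2 fell by 0.48 (SE 0.19, adjusted p = 0.025) and HMGB1 fell by 0.29 (SE 0.12, adjusted p = 0.026) in the authors' deposited table. HMGB3 rose by 0.52 in the authors' deposited table (SE 0.20, adjusted p = 0.017), and lost this call with the GC trend removed (0.39). HMGA1 rose by 0.40 in the authors' deposited table (SE 0.14, adjusted p = 0.0064), to 1.32 times the level under PLX4720.

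The effect of the combination over PLX4720 was set against the effect of 6-thio-dG over control within A375. The difference was above 0 and past the threshold for 9 of the 10 genes, where 28.5% of 11805 genes were above 0, 24.1% below 0 and 52.6% passed in either direction. It was 3.12 for HMGB3 (95% interval 2.62 to 3.62), 2.65 for LMNB1 (2.16 to 3.15) and 2.39 for HMGB2 (1.93 to 2.86), and its median over the 10 genes was 2.19, beside 0.02 over all genes. EMD, at 0.48 (0.05 to 0.91), did not pass, with an adjusted p = 0.055 made from the authors' p-values. The 2 comparisons have different denominators, PLX4720 and control, and the effect of PLX4720 alone was not analysed here, so this difference does not order the levels of a transcript between 6-thio-dG alone and the combination.

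Adding 6-thio-dG to osimertinib in HCC827 was followed by lower LBR, TMPO, LMNB1, HMGB2 and HMGB1 and by higher EMD. The other 4 genes, LMNA, LMNB2, HMGB3 and HMGA1, did not pass the threshold. In this comparison 17.9% of all genes fell, 17.3% rose and 35.2% passed in either direction. The 10 log2 fold changes ran from -0.80 to 0.54 in the authors' deposited table with a median of -0.38, beside -0.0039 over all genes.

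LMNB1 fell by 0.77 over osimertinib in HCC827 in the authors' deposited table (SE 0.19, adjusted p = 0.00081), to 58.7% of the level under osimertinib. LMNA at 0.25 (95% interval 0.01 to 0.50, adjusted p = 0.094) and LMNB2 at 0.04 (-0.20 to 0.27) in the authors' deposited table did not pass. LMNB1 was thus the lamin that fell here and in both A375 comparisons, and it rose under 6-thio-dG alone in HCC827.

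LBR at -0.80 (SE 0.17, adjusted p = 7.5e-05) and TMPO at -0.79 (SE 0.15, adjusted p = 6.6e-06) in the authors' deposited table had nearly equal falls over osimertinib, to 57.2% and 58.0% of the level under osimertinib. EMD rose by 0.54 in the authors' deposited table (SE 0.13, adjusted p = 0.00070), the reverse of TMPO, with which it shares the LEM domain. HMGB2 fell by 0.67 (SE 0.20, adjusted p = 0.0052) and HMGB1 fell by 0.47 (SE 0.12, adjusted p = 0.0011) in the authors' deposited table. HMGB3 at -0.28 (95% interval -0.55 to -0.00066, adjusted p = 0.11) and HMGA1 at 0.24 (0.01 to 0.47, adjusted p = 0.098) in the authors' deposited table did not pass.

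Fold changes in this comparison followed the GC content of the transcripts closely. Across 11792 genes Spearman's rho of log2 fold change with GC content was 0.75, against -0.38 and 0.21 for 6-thio-dG alone in A375 and in HCC827, and -0.25 over PLX4720 in A375; genes are not independent replicates. The 10 transcripts ran from 37.8% GC (LBR) to 61.5% (LMNA) with a median of 48.7%, beside 48.8% over all genes. LBR, HMGB1 at 37.9% and TMPO at 41.4% are AT-rich; LBR and TMPO lie below and HMGB1 above the median of genes of like GC content in the plot of fold change by GC content. With the trend removed, the falls of LMNB1 (-0.73) and HMGB2 (-0.72) passed, those of TMPO (-0.38) and LBR (-0.17) and the rise of EMD (0.20) did not, and HMGB1 turned to 0.15. The share of all genes that passed in either direction dropped to 6.24% under that setting. The part of GC content in these falls was not tested.

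**Figure D4:**
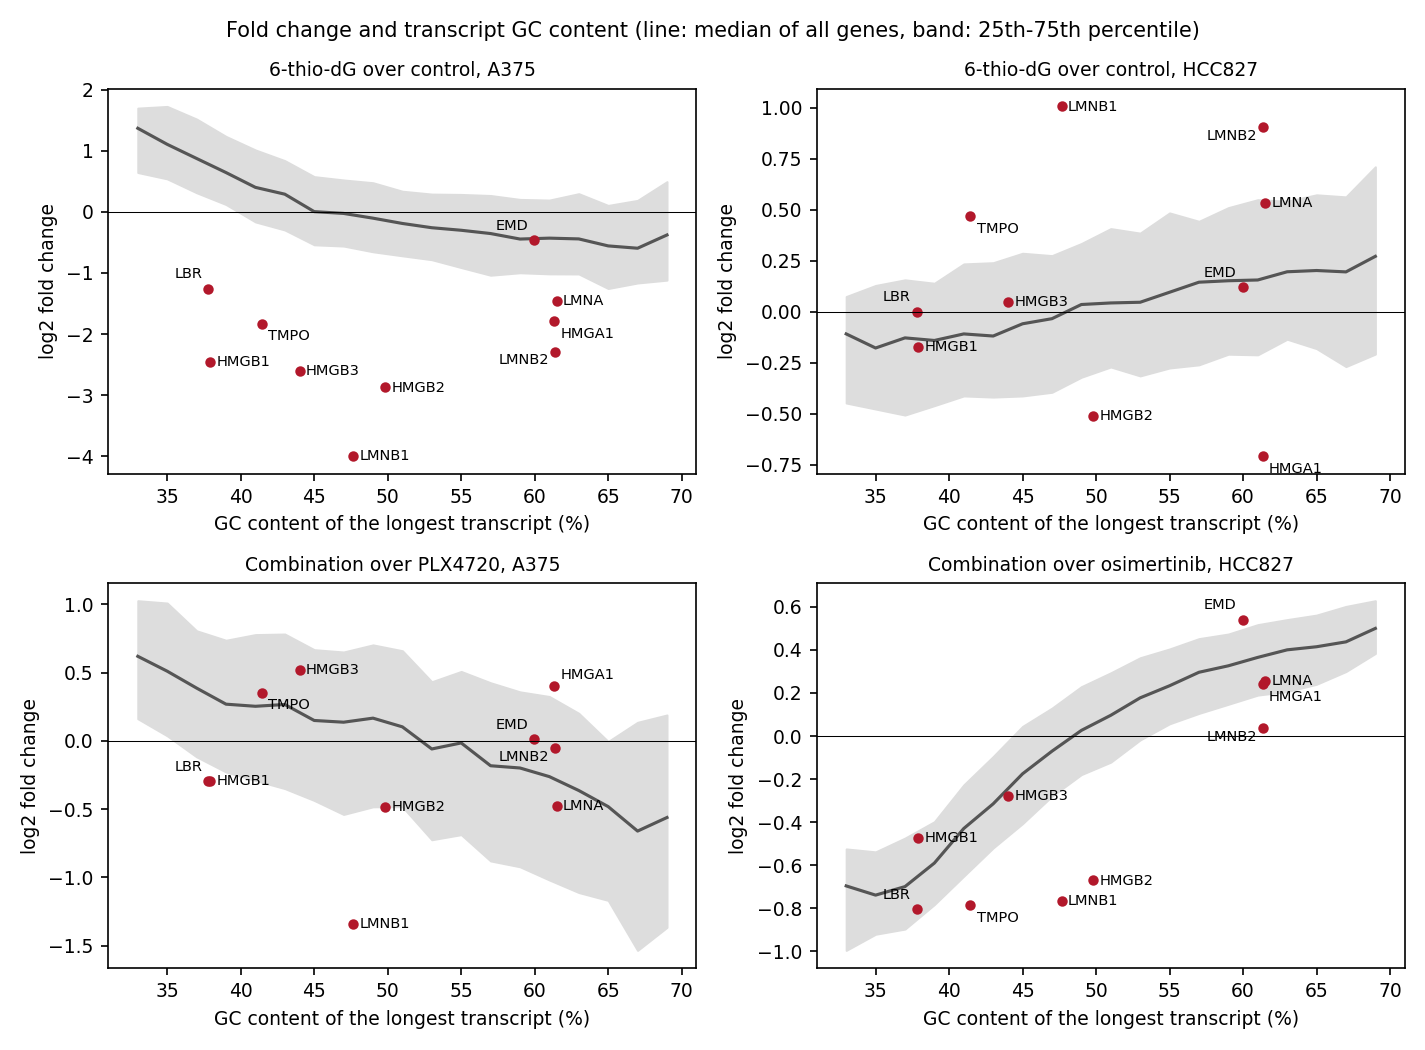
Deposited log2 fold change (y axis) against GC content of the longest annotated transcript in percent (x axis) for the 10 genes (red points), with the median of all genes in GC bins (line) and their 25th to 75th percentile (band), in each comparison. Over osimertinib in HCC827 the line climbs with GC content (rho 0.75), and LMNB1 at -0.77 and HMGB2 at -0.67 lie clear below the band while LBR at -0.80 and HMGA1 at 0.24 lie within it.

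Set between the lines, the effect of the combination over the targeted drug differed for 4 of the 10 genes. Over all genes, 56.5% of 11812 differed, 28.9% above 0 and 27.5% below 0. The targeted drug was PLX4720 in A375 and osimertinib in HCC827, so line and targeted drug cannot be told apart in these differences. The effect in A375 minus that in HCC827 was 1.14 for TMPO (95% interval 0.73 to 1.55) and 0.80 for HMGB3 (0.32 to 1.27). It was -0.73 for LMNA (-1.11 to -0.36) and -0.53 for EMD (-0.93 to -0.13). LMNB1, at -0.57 (-1.13 to -0.02, adjusted p = 0.073 from the authors' p-values), and HMGB2, at 0.19 (-0.36 to 0.73), did not pass, so a difference between the lines was not shown for either. With the GC trend removed, TMPO alone of the 4 genes passed again, at 0.53, while the differences of LMNA (0.04), EMD (0.16) and HMGB3 (0.43) did not pass and the first 2 changed sign. Another 4 genes then passed, LMNB2 (0.68) and HMGA1 (0.93) above 0 and LMNB1 (-0.67) and HMGB1 (-0.73) below 0.

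Within HCC827, the effect of the combination over osimertinib minus that of 6-thio-dG over control differed for 5 genes, where 22.3% of 11828 genes differed, 10.8% above 0 and 11.4% below 0. LMNB1 had a difference of -1.77 (95% interval -2.29 to -1.26), TMPO -1.25 (-1.71 to -0.80), LMNB2 -0.87 (-1.28 to -0.46) and LBR -0.81 (-1.34 to -0.27). The call of LBR was lost with the GC trend removed (-0.33) and at an adjusted p of 0.01. HMGA1 differed the other way, by 0.95 (0.53 to 1.36). HMGB1, HMGB2 and HMGB3 had differences from -0.33 to -0.16, and each of their intervals held 0. As in A375, the denominators differ, here osimertinib and control, and the effect of osimertinib alone was not analysed here. These differences therefore do not order the levels of a transcript between 6-thio-dG alone and the combination.

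Read across the 4 comparisons, HMGB2 fell in 4, a pattern of calls that 54 of the 11828 genes (0.457%) shared. LMNB1 fell in 3 and rose under 6-thio-dG in HCC827, as 25 genes did (0.211%). TMPO fell under 6-thio-dG in A375 and over osimertinib in HCC827 and rose in the other 2 comparisons, a pattern shared by 7 genes (0.0592%). HMGB1 fell in 3 comparisons and LBR in 2, and neither rose in any. Their patterns of calls were held by 99 genes (0.837%) and 60 genes (0.507%). Each of these counts of genes includes the member itself. These patterns depend on the threshold. Under 6-thio-dG in HCC827 and over PLX4720, the authors' adjusted p was 0.022 and 0.025 for HMGB2 and 0.035 and 0.032 for TMPO. With the GC trend removed, TMPO lost its calls over PLX4720 (0.15) and osimertinib (-0.38). HMGB1 (0.15) and LBR (-0.17) then lost theirs over osimertinib. The range of a gene's log2 fold changes over the 4 comparisons was largest for LMNB1, 5.00, and smallest for EMD, 1.01.

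The genes whose 4 fold changes lay closest to those of a member were found by Euclidean distance over the 4 log2 fold changes. For LMNB1 these were TROAP (0.39), SPAG5 (0.52) and SHCBP1 (0.54), of which SPAG5 is known as a spindle protein. For HMGB2 they were CDKN3 (0.46), a phosphatase of cyclin-dependent kinases, CCR3 (0.53) and HMGB1 (0.61). For HMGB1 they were CCR3 (0.14), SRCAP (0.32) and CD24 (0.35). For LMNA they were HDAC7 (0.15), VCP (0.18) and NACC1 (0.18). Of the 4 fold changes of each neighbour, 1 passed the threshold for CCR3, SRCAP and CDKN3 and 2 for CD24, against 3 or 4 for those of LMNB1 and LMNA. The distance takes no account of these errors, so the neighbours of HMGB1, and CDKN3 and CCR3 beside HMGB2, include mostly values that did not pass. Distances are small for genes that changed little, so they are not comparable between members, and 4 comparisons are few points for a likeness.

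The counts in the gene lists below are to be read beside the shares over all genes. Of all genes, 33.7% fell and 31.3% rose under 6-thio-dG in A375, and 14.4% fell and 14.8% rose in HCC827. Over PLX4720 in A375, 29.3% fell and 31.2% rose, and over osimertinib in HCC827, 17.9% fell and 17.3% rose. With the GC trend removed, the share of all genes that passed over osimertinib in HCC827 dropped from 35.2% to 6.24%. The listed genes are given without that removal, so their calls over osimertinib may not hold under it. Cell-cycle genes were read beside the members. Of 25 such genes, 25 fell under 6-thio-dG in A375 with a median log2 fold change of -3.46, and MKI67 and TOP2A, which mark dividing cells, had -5.15 and -3.37 in the authors' deposited table. In HCC827 under 6-thio-dG, 17 rose and 0 fell, with a median of 0.72; CCNE2 (3.33) and E2F1 (1.95), which act at S-phase entry, had the smallest p-values in the authors' deposited table, while MKI67 (0.36, adjusted p = 0.19) and TOP2A (-0.12, adjusted p = 0.71) did not pass. Over PLX4720 in A375, 16 fell and 2 rose, with MKI67 at -3.51 and PCNA, the replication clamp, at 1.65 in the authors' deposited table. With 6-thio-dG added to osimertinib in HCC827, 8 fell and 0 rose, with TOP2A at -1.41 and CDK1 at -1.14 in the authors' deposited table. The share of the members' changes that goes with the share of dividing cells was not tested.

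**Figure D5:**
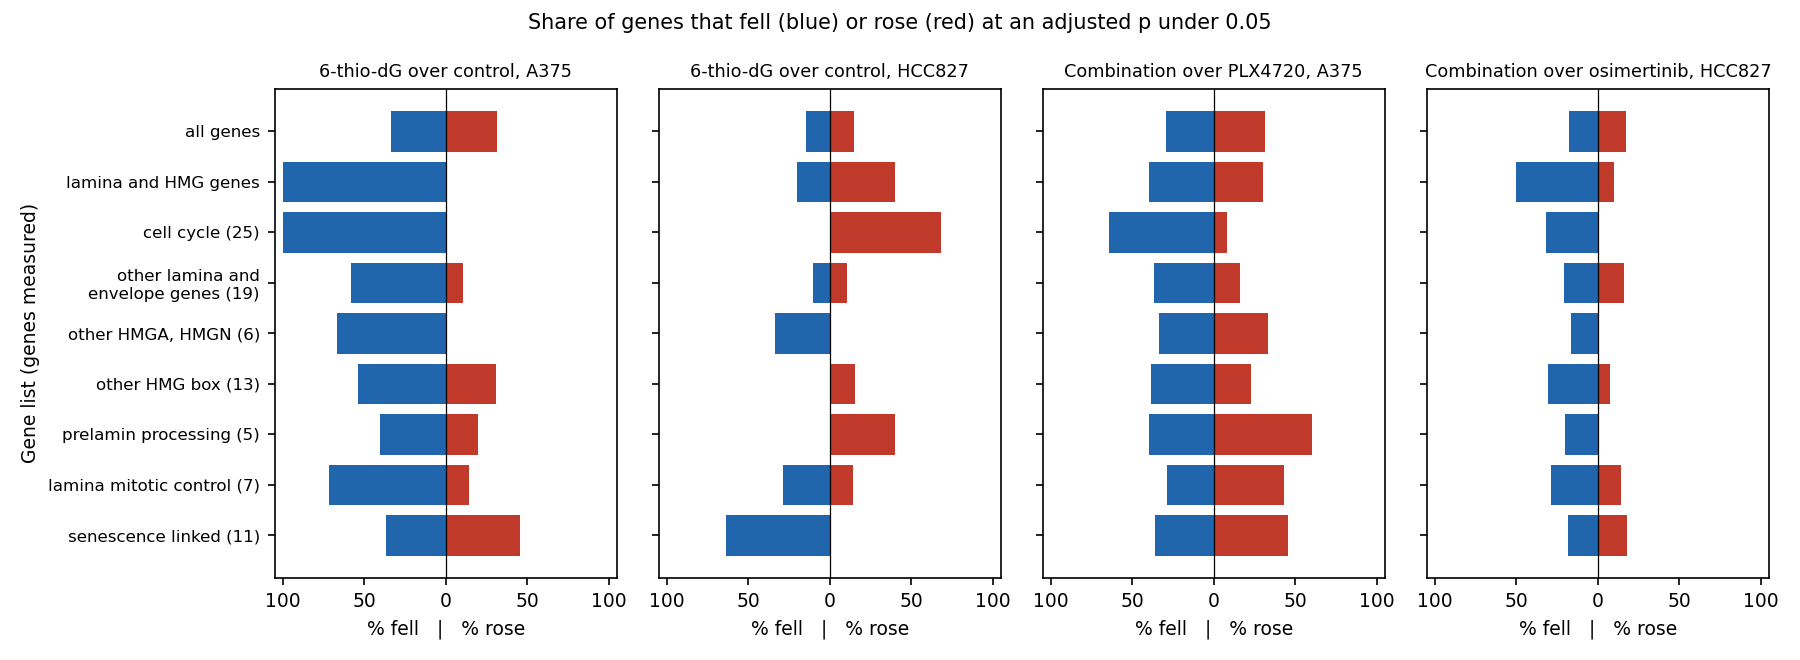
Share of genes that fell (blue, to the left) or rose (red, to the right) at the authors' adjusted p under 0.05, in percent on the x axis, for the 10 genes, all genes and 7 related lists (y axis, genes measured in brackets), in each comparison. Under 6-thio-dG in A375 the 10 lamina and HMG genes and the 25 cell-cycle genes fell throughout, against 33.7% of all genes. CCNB1 and CDK1 are in both the cell-cycle and the lamina mitotic control lists.

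Other genes of the lamina and nuclear envelope moved less uniformly. Of 19 with a row, 11 fell and 2 rose under 6-thio-dG in A375, among them TMEM201 at -2.03, the heterochromatin protein CBX5 at -1.97 and the LINC-complex protein SUN2 at -1.97 in the authors' deposited table. BANF1, the ligand of the LEM domain, fell by 0.86, and SUN1, at -0.26 (adjusted p = 0.065), did not pass in the authors' deposited table. Under 6-thio-dG in HCC827, 2 rose and 2 fell, with NEMP1 at 1.29 and the nesprins SYNE1 and SYNE2, which tie the nucleus to the cytoskeleton, at -1.46 and -0.997 in the authors' deposited table. Of all genes, 65.0% passed in either direction under 6-thio-dG in A375 and 29.2% in HCC827.

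Over PLX4720 in A375, 7 of these 19 genes fell and 3 rose; SYNE2 had -4.03, CBX5 -1.75, SUN2 -0.96 and SUN1 -0.47, and BANF1 rose by 0.48 in the authors' deposited table. Over osimertinib in HCC827, 4 fell and 3 rose, with CBX3 at -0.61, TOR1AIP1 at -0.53 and BANF1 at 0.59 in the authors' deposited table. Of all genes, 60.5% passed in either direction over PLX4720 in A375 and 35.2% over osimertinib in HCC827. BANF1 thus rose in both combination comparisons. Over osimertinib EMD also rose, while TMPO, the other member with a LEM domain, fell (-0.79). Both calls were lost with the GC trend removed (0.20 for EMD and -0.38 for TMPO).

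Prelamin processing, the farnesylation and cleavage steps that mature lamins, was read in 5 genes. Under 6-thio-dG in A375, the methyltransferase gene ICMT (-1.17) and the farnesyltransferase subunit gene FNTB (-1.75) fell and FNTA (0.92), the other subunit, rose in the authors' deposited table. ZMPSTE24, the protease that cleaves prelamin A, was at -0.0035 in the authors' deposited table (adjusted p = 0.98). Under 6-thio-dG in HCC827, 2 rose, ZMPSTE24 (0.58) and ICMT (0.60), in the authors' deposited table. Over PLX4720 in A375, 3 rose and 2 fell, with FNTB at -1.39, RCE1 at 0.78, FNTA at 0.48 and ZMPSTE24 at 0.27 in the authors' deposited table. In HCC827 over osimertinib, ZMPSTE24 (-0.46) alone fell in the authors' deposited table.

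Genes that control the lamina in mitosis were read in a list of 7. CCNB1 and CDK1 are also in the cell-cycle list above, so their values are counted in both lists. CCNB1 (-4.48) and CDK1 (-2.24), whose kinase phosphorylates lamins, and VRK1 (-1.27), which phosphorylates BANF1, were among 5 that fell under 6-thio-dG in A375 in the authors' deposited table, where 1 rose. In HCC827 under 6-thio-dG, CCNB1 rose by 0.72, and VRK2 (-0.89) and the phosphatase subunit PPP2R2A (-0.69) fell in the authors' deposited table. With 6-thio-dG added to PLX4720 in A375, 3 rose and 2 fell, with CDK1 at -1.38, PPP2R2A at 0.55 and PPP1CC at 0.46 in the authors' deposited table. Against osimertinib alone in HCC827, CDK1 (-1.14) and VRK1 (-0.66) fell and PPP2R1A (0.58) rose in the authors' deposited table.

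The smaller HMG proteins were read in 6 genes. Under 6-thio-dG in A375, 4 fell and 0 rose, with the nucleosome-binding HMGN2 at -2.27 and HMGN1 at -1.07, and HMGA2, the paralogue of HMGA1, at -1.63 in the authors' deposited table. In HCC827 under 6-thio-dG, HMGN3 (-0.96) and HMGN1 (-0.49) fell, and HMGN2 (-0.02) and HMGA2 (-0.24) did not pass in the authors' deposited table. In A375 over PLX4720, HMGA2 had -2.59 and HMGN3 -0.86, and HMGN1 rose by 0.67 and HMGN2 by 0.28 in the authors' deposited table. HMGA2 and HMGA1, both AT-hook proteins, thus went opposite ways there, at -2.59 and 0.40. In HCC827 over osimertinib, 1 of the 6 passed, HMGA2 at -0.36 in the authors' deposited table (adjusted p = 0.044).

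Of 13 other HMG-box genes, 7 fell and 4 rose under 6-thio-dG in A375, where 33.7% of all genes fell and 31.3% rose. The FACT subunit gene SSRP1 had -1.47, UBTF, the RNA polymerase I factor, -1.38, and HMG20B -1.26 in the authors' deposited table. In HCC827 under 6-thio-dG, 2 rose and 0 fell, TOX4 (1.03) and WDHD1 (0.70), in the authors' deposited table. Over PLX4720 in A375, 5 fell and 3 rose, with HMG20B at -1.59, CIC at -1.23 and UBTF at -0.75 in the authors' deposited table. Over osimertinib in HCC827, 4 fell and 1 rose, with the mitochondrial factor TFAM at -0.81, BBX at -0.78 and HMG20B at 0.49 in the authors' deposited table.

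Enzymes of the sterol pathway in which LBR acts were read too. TM7SF2, the other sterol reductase of the same step, rose by 1.31 under 6-thio-dG in A375, where LBR fell, in the authors' deposited table. It had -1.99 over PLX4720 in A375 and 0.66 over osimertinib in HCC827 in the authors' deposited table. DHCR7 (-1.06) fell and SC5D (1.55) rose under 6-thio-dG in A375 in the authors' deposited table. Over PLX4720, SC5D (0.71) and MSMO1 (0.97) rose in A375, and over osimertinib DHCR7 (0.51) rose and SC5D (-0.81) fell in HCC827 in the authors' deposited table.

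Senescence-linked genes were read in 11 of 16 listed genes with a row, because lower LMNB1 and HMGB2 are used as marks of that state. Under 6-thio-dG in A375, 5 rose and 4 fell; GDF15 (4.43) and CDKN1A (2.51), which encodes the cyclin-dependent kinase inhibitor p21, rose, and GLB1 (-1.27), the gene of senescence-associated β-galactosidase, fell in the authors' deposited table. In HCC827 under 6-thio-dG, 7 fell and 0 rose, with the secreted factors IL1A (-2.56), CXCL8 (-2.11) and IL6 (-1.71) lowest by p-value of the 11, in the authors' deposited table, and CDKN1A did not pass there (-0.45, adjusted p = 0.054). Of all genes, 65.0% passed in either direction under 6-thio-dG in A375 and 29.2% in HCC827.

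Over PLX4720 in A375, 5 of the 11 rose and 4 fell, with GDF15 at 6.79, CDKN1A at 2.65 and GLB1 at -1.85 in the authors' deposited table. Over osimertinib in HCC827, 2 rose and 2 fell, with CDKN2A at 0.55, IL1B at -0.77 and RB1 at -0.95, in the authors' deposited table, and CDKN1A did not pass there (-0.45, adjusted p = 0.25). None of 4 listed receptors of extracellular HMGB1 (AGER, TLR2, TLR4 and CXCR4) had a row.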

How the data were processed

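RNA of cultured A375 and HCC827 cells was extracted with Trizol, selected with poly-T beads and made into libraries with an NEB Next Ultra kit, per the labels' protocols. FastQC, Trimmomatic and STAR with hg38 are named per the submitters' processing notes. Not given in the sources used here: their versions, the counting, its use of strand, the annotation, the test and any filter. Per the file headers, the authors deposited log2 fold changes with p-values and adjusted p-values for 4 comparisons, with no value per library and so no depth.

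Calls used the authors' adjusted p under 0.05, over all genes the authors tested. The implied SE is the size of the log2 fold change over that of the two-sided normal z of its p-value, and intervals cover 95%. Differences between comparisons, read as sharing no libraries, were tested by a two-sided z test with Benjamini-Hochberg adjustment across all genes in each of 4 families, leaving out genes with a p-value listed as 0, and the code was tested on simulated data. With 2 libraries a group, a normal reading of the p-values may give errors that are too small or too large, and p-values measure only the spread between these libraries. GC content and shared 100-base windows came from the longest transcripts of GENCODE 29, which matched 11792 genes by symbol, and promoters from RefSeq (GRCh38.p14). The GC trend was a lowess fit with a fraction of 0.3. Alternatives tried were a stricter adjusted p of 0.01, at least 2-fold change, readjustment over the table, median centring, GC trend removal and a t reading with 4 degrees of freedom.

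The members, 9 gene lists, alternatives and rule for named genes were chosen with earlier results of these data known. The rule named the 10 members, of each list the 3 called genes with the smallest p-values in each comparison, SUN1, SUN2, BANF1, ZMPSTE24, HMGN1, HMGN2, HMGA2, MKI67, TOP2A and CDKN1A, and the 3 genes closest to each of LMNB1, HMGB2, LMNA and HMGB1 over the 4 fold changes. Lists were described by counts and medians, with no test; for the sterol enzymes no count is given, since 1 listed gene is not reported here. Python 3.11.15, NumPy 2.4.6, SciPy 1.17.1, pandas 2.3.3, statsmodels 0.14.6 and Matplotlib 3.10.9 were used.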

Additional observations from a re-analysis of the deposited data

Results flagged for a closer look

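Each of the following results was picked out because the difference between 2 comparisons itself passed a test (two-sided z test on the implied errors, Benjamini-Hochberg adjusted p under 0.05 over all genes tested). All values are differences of 2 log2 fold changes.

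Under 6-thio-dG, the effect in A375 minus that in HCC827 was -5.00 for LMNB1, -3.19 for LMNB2 and -1.99 for LMNA. It was -2.30 for TMPO, -1.26 for LBR and -0.59 for EMD among the inner nuclear membrane genes. Among the HMG genes it was -2.65 for HMGB3, -2.36 for HMGB2, -2.28 for HMGB1 and -1.08 for HMGA1. Under the combination over the targeted drug, the effect in A375 minus that in HCC827 was 1.14 for TMPO, 0.80 for HMGB3, -0.53 for EMD and -0.73 for LMNA. For these 4 genes line and targeted drug cannot be told apart, since the drug was PLX4720 in A375 and osimertinib in HCC827. With the trend with GC content removed, EMD and HMGA1 no longer passed under 6-thio-dG, and TMPO alone of these 4 passed under the combination.

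The effect of the combination over PLX4720 minus that of 6-thio-dG over control in A375 was 2.65 for LMNB1, 2.23 for LMNB2 and 0.98 for LMNA. It was 2.185 for TMPO and 0.96 for LBR. For the HMG genes it was 3.12 for HMGB3, 2.39 for HMGB2, 2.16 for HMGB1 and 2.19 for HMGA1. The effect of the combination over osimertinib minus that of 6-thio-dG over control in HCC827 was -1.77 for LMNB1, -1.25 for TMPO, -0.87 for LMNB2, -0.81 for LBR and 0.95 for HMGA1. LBR no longer passed with the GC trend removed (-0.33). Within each line the denominators differ, so these differences do not order the levels of a transcript between 6-thio-dG alone and the combination. The cause of these differences was not tested.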

How the results depend on the processing

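Under 6-thio-dG in A375, 10 of 10 genes fell under each alternative run except the 2-fold requirement and both removals of the GC trend, where 9 did, without EMD. The count of member differences that passed, in either direction, stayed within 1.5 times in each of the 4 families, but not always for the same genes. With the GC trend removed, 5 differences between the lines under the combination passed against 4, and 1 gene, TMPO, was in both sets; LMNB1, LMNB2, HMGB1 and HMGA1 were added and LMNA, EMD and HMGB3 lost. Counts of members moved further elsewhere. At an adjusted p of 0.01, 2 rose and 1 fell under 6-thio-dG in HCC827, and 1 rose and 2 fell over PLX4720 in A375. With a change of at least 2-fold required, 1 rose and 0 fell under 6-thio-dG in HCC827, 0 rose and 1 fell over PLX4720 in A375, and 0 rose and 0 fell over osimertinib in HCC827. With the GC trend removed, 0 rose and 2 fell over osimertinib in HCC827, but 1 rose and 4 fell when the p-values were also read as t with 4 degrees of freedom, as TMPO, LBR and EMD then kept their calls. The t reading gives a smaller implied SE than the normal reading for the same p-value. It is therefore not a stricter check, and these kept calls add no support.

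Signs turned as follows. With the median of all genes centred at 0, LBR came to -0.0084 under 6-thio-dG in HCC827 and EMD to -0.045 over PLX4720 in A375. With the GC trend removed, EMD came to -0.032 under 6-thio-dG in HCC827, LMNB2 to 0.35 over PLX4720 in A375, and LMNA to -0.11, LMNB2 to -0.32, HMGB1 to 0.15 and HMGA1 to -0.12 over osimertinib in HCC827. Of these values, HMGB1 over osimertinib was the one called before the removal. Of the differences with the GC trend removed, A375 minus HCC827 under the combination came to 0.037 for LMNA, 0.68 for LMNB2, -0.41 for LBR, 0.16 for EMD and -0.73 for HMGB1, and combination minus 6-thio-dG in HCC827 came to 0.16 for HMGB1. The cause was not tested.

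Readjustment over the table changed no call of the 40 member values, and a t reading of the p-values with 4 degrees of freedom gave 3 more calls of differences, EMD, LMNB1 and LBR. In that setting the difference was tested with the degrees of freedom of both comparisons added. The sizes of these differences were unchanged and their implied errors were smaller, so the added calls give no support. Within the nearest 100 bases of a start, 3 genes held CCAAT and 0 held TTTGAA. No paired analysis was possible because the deposited table holds no value per library, and leaving out each replicate was not run for the same reason. Depth is unknown, so its limit on any value could not be judged, and a level at or near 0 cannot be seen.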
